A study of Citrus sinensis with 48 samples.

Results

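The genes described here encode enzymes of the Calvin cycle and of photorespiration, together with their cytosolic and other relatives. They were taken from the product names of a leaf gene table, excluding chloroplast-encoded genes, and numbered 65 of 30136 genes. Of these, 13 carry product names of the Calvin cycle, 22 carry product names of photorespiration, whatever compartment they name, and 30 are relatives that share a product name, such as cytosolic glyceraldehyde-3-phosphate dehydrogenases, phosphoglycerate mutases and phosphoglycerate dehydrogenases. The large subunit of rubisco, which the chloroplast genome encodes, was not among them. After a filter on low counts 60 members were tested, namely 12 Calvin cycle genes, all 22 photorespiration genes and 26 relatives. The 5 members not tested included a small subunit gene of rubisco with next to no reads (LOC102623191) and a relative with no count in any library.

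Leaf mRNA had been sequenced in a pair of citrus rootstock genotypes. Car is Carrizo citrange, a hybrid of Poncirus trifoliata and Citrus sinensis, and Cleo is Cleopatra mandarin (Citrus reshni). Plants of each genotype were controls (CT) or were exposed to heat stress (HS), high light (HL), water stress (WS), one of the pairs WS+HL, WS+HS and HL+HS, or WS+HL+HS, with 3 libraries in each of the 16 groups. The labels used here state no durations, temperatures, light intensities or plant ages, and do not say whether a library is 1 plant, so p-values measure the spread between these libraries.

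In the Calvin cycle, rubisco fixes carbon dioxide onto ribulose bisphosphate, phosphoglycerate kinase and the chloroplast glyceraldehyde-3-phosphate dehydrogenase reduce the product to sugar phosphate, and a set of phosphatases, transketolase, epimerase and phosphoribulokinase rebuild the acceptor. Rubisco also accepts oxygen, which yields phosphoglycolate. Photorespiration salvages that carbon through chloroplast, peroxisome and mitochondrion, with glycolate oxidase in the peroxisome and the glycine cleavage system and serine hydroxymethyltransferase in the mitochondrion.

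The libraries held 40294831 to 58392998 counts. Chloroplast genes held 0.152% to 2.24% of a library and ribosomal RNA genes 0.457% to 5.39%. A mark of unstated meaning stands in the column names of 11 libraries, which are Car CT replicates 1 and 3, Car HL replicate 1, all 3 Car HS libraries, Car WS+HL replicate 1, Cleo CT replicate 3, Cleo HL+HS replicates 1 and 2, and Cleo WS+HL+HS replicate 3. In a fit with a term for this mark, 28 of the 60 members were higher in marked libraries and 0 were lower, against 8.97% of all tested genes higher and 7.39% lower. Here and below a gene is called, and said to rise or fall, where the edgeR quasi-likelihood test gave a Benjamini-Hochberg adjusted p under 0.05. Among Calvin cycle genes 10 of 12 were higher, with a median difference of 0.19 on the log2 scale, and among photorespiration genes 12 of 22 were higher, with a median of 0.15. The sedoheptulose-1,7-bisphosphatase gene (LOC102621511) differed most, by 0.36 ± 0.05 (SE). Because marked libraries are unevenly spread over the groups, counts with this term are given below wherever they differed from those without it by over 1.5 times.

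**Figure D1:**
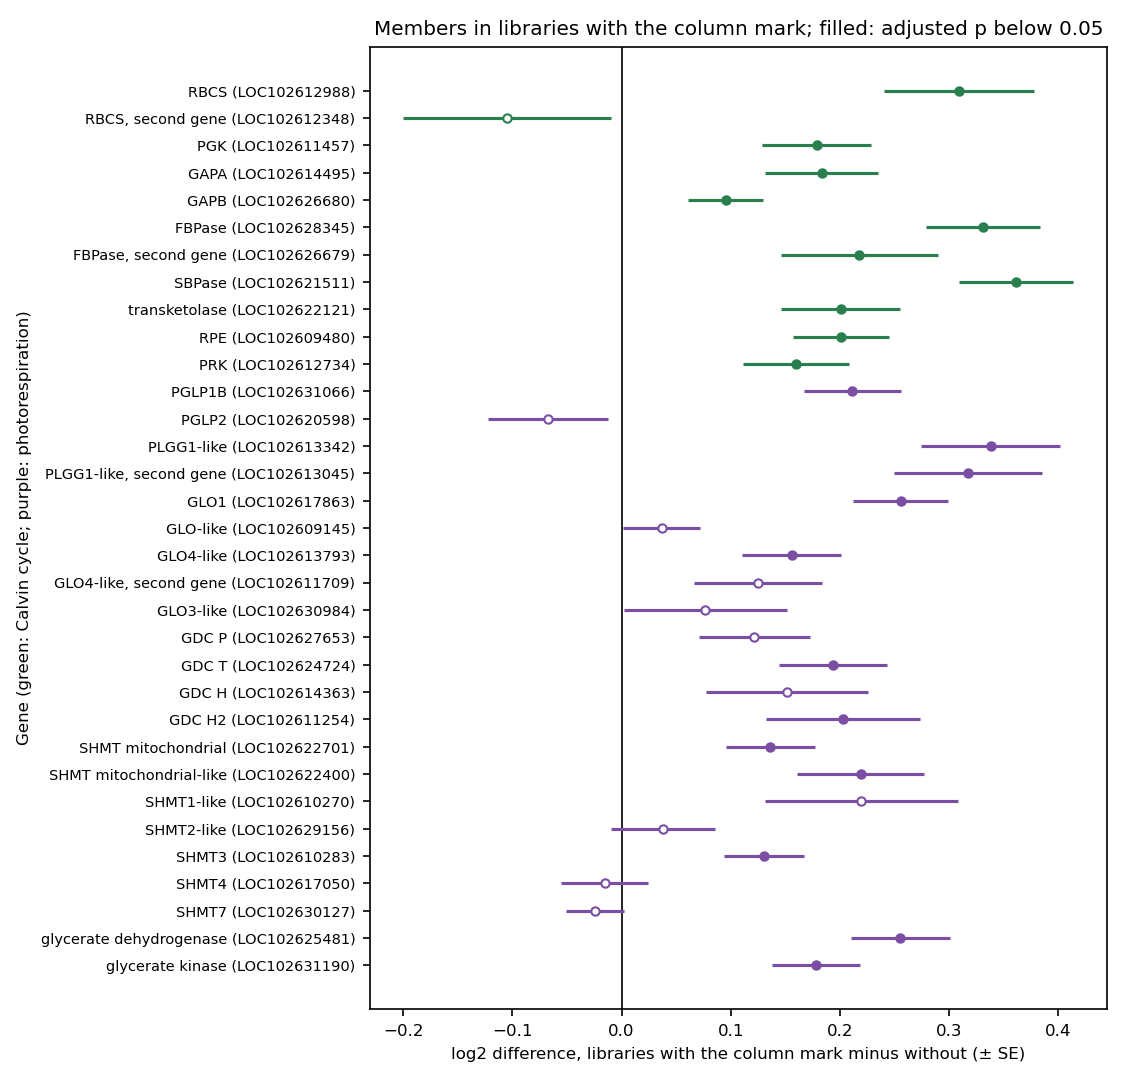
Difference between marked and unmarked libraries (log2, ± SE) for 33 Calvin cycle and photorespiration genes, from a fit with 16 group means and a term for the mark. The values reach 0.36 for sedoheptulose-1,7-bisphosphatase, and none of the genes is called lower in marked libraries.

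In control leaves a single gene of the rubisco small subunit (RBCS, LOC102612988) had the highest level per gene length, with 10645 ± 1725 TPM (SD, n = 3) in Car and 14768 ± 260 TPM in Cleo. It made up 35.3% of the summed TPM of all members in Car and 46.3% in Cleo. The chloroplast glyceraldehyde-3-phosphate dehydrogenase A gene (GAPA, LOC102614495) followed, with 2557 ± 210 TPM in Car and 2036 ± 212 TPM in Cleo. Next in Car came the GAPB subunit gene (LOC102626680) at 1687 ± 53.8 TPM and the glycolate oxidase gene GLO1 (LOC102617863) at 1548 ± 124 TPM, which lay close together. In Cleo phosphoribulokinase (PRK, LOC102612734) at 1587 ± 127 TPM stood above GAPB at 1131 ± 45.5 TPM and GLO1 at 1094 ± 27.4 TPM, and the last 2 of these did not differ beyond their spread.

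The summed level of the 13 Calvin cycle genes was below that of CT, without overlap, under every treatment that included WS. RBCS held most of this sum in CT of both genotypes, so the sum weighs that gene above the others. In Car the sum was 19089 ± 2301 TPM in CT and 5604 ± 281 TPM under WS, or 29.4% of CT. In Cleo it was 22167 ± 274 TPM in CT and 3408 ± 81.3 TPM under WS, or 15.4% of CT. Heat with high light separated the genotypes. The sum under HL+HS was 12703 ± 474 TPM in Car, 66.5% of CT, and 6698 ± 244 TPM in Cleo, 30.2% of CT. The sum of the 22 photorespiration genes in Cleo went under WS from 7111 ± 77.0 to 3299 ± 99.6 TPM, or 46.4% of CT, and in Car from 8274 ± 507 to 3894 ± 97.6 TPM, or 47.1% of CT. Under HS the photorespiration sum was 49.1% of CT in Car and 75.6% in Cleo. These ratios are on the TPM scale, whereas the fold changes and tests below are on TMM-normalised counts. Under HL+HS the median difference of the members' log2 ratios, TPM minus fit, was −0.344 in Car and −0.176 in Cleo. The TPM ratios there thus show a larger fall than the fitted fold changes, more so in Car.

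Chlorophyll a-b binding protein genes, which mark mesophyll, were summed for comparison over 14 genes, none of them at 0 in all libraries. Their sum was 31185 ± 2807 TPM in Car CT and 31363 ± 2820 TPM in Cleo CT. Under WS it was 26.8% of CT in Car and 15.5% in Cleo, close to the share left of the Calvin cycle genes. Under HS it was 199% of CT in Car and 158% in Cleo, and under HL+HS 134% and 72.7%, so there it did not follow the Calvin cycle sum. Under WS+HL it was 40.0% in Car and 19.3% in Cleo, where the Calvin cycle sum was 36.7% and 21.0%. Under WS+HS it was 52.2% and 45.1%, against 27.4% and 26.4% for the Calvin cycle sum. Under WS+HL+HS it was 52.7% and 32.8%, against 37.1% and 17.0%. In bulk leaf RNA, fewer cells of a type and less RNA per cell cannot be told apart, and the part of cell makeup in the results was not tested.

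**Figure D2:**
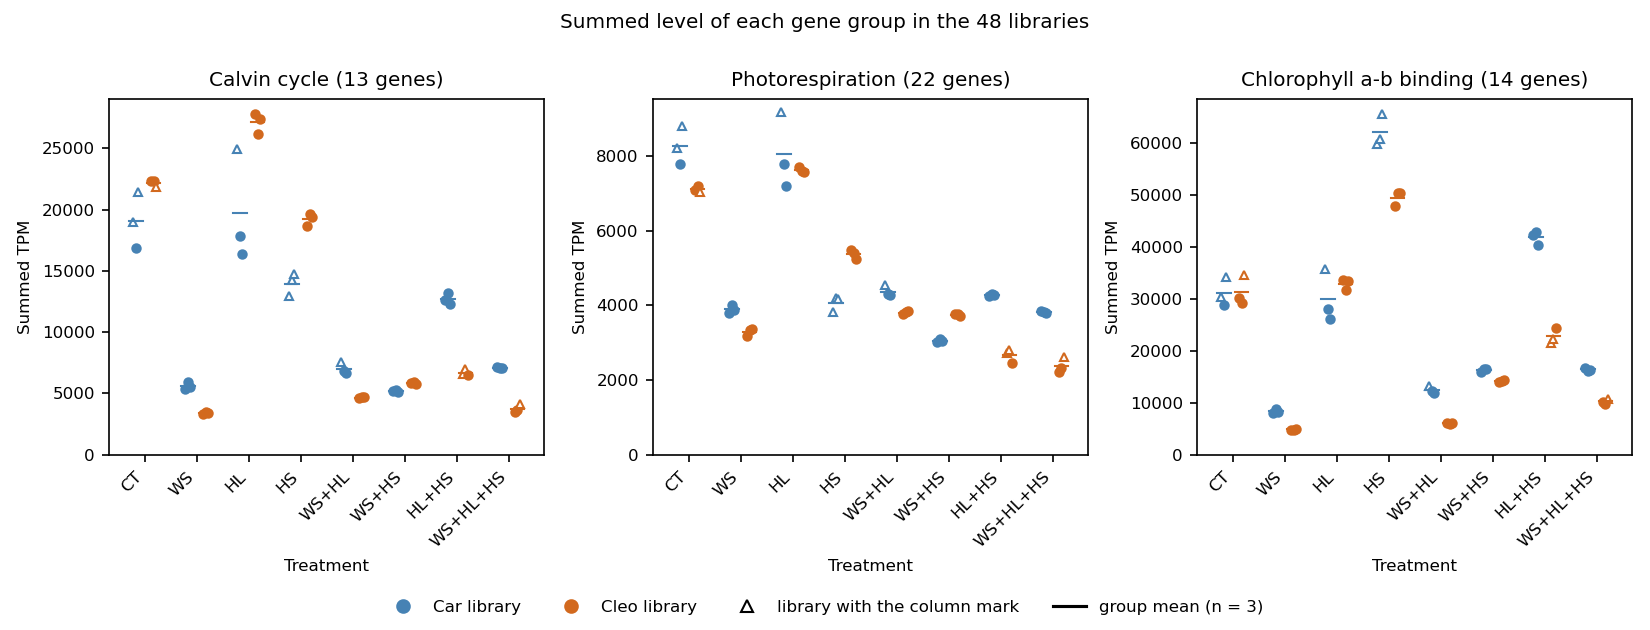
Summed TPM of the 13 Calvin cycle genes, the 22 photorespiration genes and 14 chlorophyll a-b binding protein genes in each of the 48 libraries, by treatment, with Car in blue, Cleo in orange, marked libraries as triangles and lines at the group means. The Calvin cycle panel is lowest under the treatments with WS, and under HL+HS the Car libraries lie near 12703 TPM and the Cleo libraries near 6698 TPM.

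Water stress lowered most of both pathways in both genotypes. Of the 12 tested Calvin cycle genes 10 fell and 1 rose in Car (median log2 fold change −1.13, all genes −0.08), where 35.3% of all tested genes fell and 29.5% rose. In Cleo 10 fell and 1 rose as well (median −1.46, all genes 0.00), against 33.4% and 31.2% of all genes. Photorespiration genes split, with 15 of 22 lower and 6 higher in Car (median −0.68) and 15 lower and 7 higher in Cleo (median −0.69). The genes that rose in both genotypes included the members of the glycolate oxidase family other than GLO1, described below. The photorespiration set holds forms of any compartment, whereas cytosolic forms of Calvin cycle enzymes were counted among the relatives. The part of this grouping in the contrast between the sets, here and below, was not tested. The response was lower in Cleo than in Car for 7 of the 12 Calvin cycle genes and higher for 0, by the test of the difference between genotypes (median difference −0.42, all genes 0.02), which called 18.3% of all genes lower and 17.8% higher.

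When WS was joined by HL or HS the direction stayed. Under WS+HL 10 Calvin cycle genes fell and 1 rose in each genotype, with medians of −0.82 in Car and −1.16 in Cleo, where 33.2% and 33.7% of all genes fell, 28.8% and 31.2% rose, and the medians of all genes were −0.05 and 0.00. Under WS+HS 9 fell and 2 rose in Car (median −1.26, all genes −0.03) and 10 fell and 2 rose in Cleo (median −1.46, all genes 0.00), with 35% and 32% of all genes lower and 31.9% and 32.2% higher. The fold changes under WS+HS departed upward from the sum of the WS and HS fold changes for 7 Calvin cycle genes in Car and 8 in Cleo and downward for 0 in both, against 18.5% of all genes upward and 18.6% downward in Car, and 19.7% and 17.6% in Cleo. The median departure was 0.43 in Car and 0.78 in Cleo (all genes 0.00 in both), so the pair lowered most of these genes by less than the sum of the single responses on the log2 scale. Few Calvin cycle genes were called as departing from the sum of WS and HL under WS+HL. In Cleo 2 Calvin cycle genes exceeded that sum and 2 lay below it (12.3% and 12.9% of all genes), or 2 and 5 with the term for the column mark. In Car 1 exceeded it and 0 lay below it (8.65% and 9.48% of all genes), and without Car HL replicate 1 the count above the sum was 8, without Car CT replicate 2 it was 4, and with the term it was 0. Under WS+HL+HS 9 fell and 2 rose in Car (median −0.97) and 10 fell and 2 rose in Cleo (median −1.95), where 38.7% and 35.1% of all genes fell, 32.5% and 37.5% rose, and their medians were −0.07 and 0.00.

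The difference between genotypes was tested in each of these combinations and under HS. Under WS+HL+HS the response was lower in Cleo for 11 of 12 Calvin cycle genes and 17 of 22 photorespiration genes, and higher for 0 and 2, where 27.3% of all genes were lower and 29.1% higher. The median difference was −1.07 for Calvin cycle genes, −0.75 for photorespiration genes and 0.09 for all genes. Under WS+HL 7 Calvin cycle genes were lower in Cleo and 0 higher, against 21% and 19% of all genes, and 4 were lower without Car CT replicate 2 or without Car WS+HL replicate 1. Under WS+HS 4 were lower and 1 was higher, against 21.2% and 20.5%, and 3 were lower and 0 higher without Car WS+HS replicate 2 or Cleo WS+HS replicate 3. Under HS 2 were lower and 4 higher (median difference 0.18, all genes −0.02), against 23.5% and 20.2%. All 3 Car HS libraries are marked, and with the term for the column mark 2 were lower and 6 higher (median 0.31). Under heat alone 33.3% of Calvin cycle genes were thus called higher in Cleo and 16.7% lower in the main fit. With 12 genes these shares lie near those of all genes, so no direction of the set is read from them.

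Heat stress on its own lowered most photorespiration genes and 7 of the 12 Calvin cycle genes in each genotype. In Car 14 of 22 photorespiration genes fell and 5 rose (median −0.68), and 7 of 12 Calvin cycle genes fell and 2 rose (median −0.50), against 26.3% of all genes lower, 32.3% higher and a median of 0.06. All 3 Car HS libraries carry the column mark, and with the term for the mark 9 Calvin cycle genes fell and 2 rose. In Cleo 18 of 22 photorespiration genes fell and 1 rose (median −0.66), and 7 of 12 Calvin cycle genes fell and 2 rose (median −0.32), against 27.4% of all genes lower, 27.1% higher and a median of 0.00.

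High light alone raised Calvin cycle genes in Cleo. There 9 of 12 rose and 0 fell (median 0.45, all genes 0.00), where 17.7% of all genes rose and 18% fell. Of the 9, the transketolase-like gene LOC102607267 had counts of only 0, 5 and 9 under HL and 0 in CT. It was not called without Cleo HL replicate 3 (adjusted p = 0.0541). In Car 2 rose and 0 fell (median 0.08, all genes 0.00), with 9.69% of all genes higher and 8.77% lower. The difference between genotypes was called for 4 genes, all higher in Cleo, and for 7 with the term for the column mark, against a background of 7.77% higher and 7.66% lower. Car HL replicate 1, a marked library, stood apart from its group, and without it 1 Calvin cycle gene was higher and 4 were lower in Car. The HL result in Car therefore depended on that library, though not on it alone. Without Car CT replicate 1 or Car CT replicate 2, 1 Calvin cycle gene was called, and 0 were called when only the libraries of this comparison were fitted. The count for the genotype difference was 9 higher in Cleo without Car HL replicate 1, and 2 without Car HL replicate 3 or Car CT replicate 3.

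Heat with high light lowered most of both pathways in Cleo and fewer of them in Car. In Cleo 10 of 12 Calvin cycle genes fell and 2 rose (median −1.25, all genes 0.02), and 20 of 22 photorespiration genes fell and 1 rose (median −0.91), against 31.5% of all genes lower and 35.5% higher. In Car 6 Calvin cycle genes fell and 2 rose (median −0.26, all genes 0.00), and 12 photorespiration genes fell and 2 rose (median −0.32), against 31.4% lower and 29.5% higher. With the term for the column mark, 4 Calvin cycle genes fell and 3 rose in Car (median −0.10). The response in Cleo was lower than that in Car for 11 of 12 Calvin cycle genes and 18 of 22 photorespiration genes, and higher for 0 and 2, where the same test called 23.5% of all genes lower and 26.5% higher. The median difference was −0.91 for Calvin cycle genes, −0.69 for photorespiration genes and 0.07 for all genes.

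Against the sum of the HL and HS fold changes, 10 of 12 Calvin cycle genes were lower under HL+HS in Cleo and 1 was higher (median departure −1.28, all genes 0.00), against a background of 24.7% lower and 25.3% higher. Photorespiration genes split, with 12 lower and 8 higher. In Car 2 Calvin cycle genes exceeded the sum and 0 lay below it (median 0.24, all genes −0.08), where 12% of all genes were higher and 15.8% lower. With the term for the column mark 6 exceeded it in Car and 0 lay below it. The count above the sum in Car was 9 without HL replicate 1, 4 without CT replicate 2, 1 without CT replicate 1, HL+HS replicate 2, HL+HS replicate 3 or HS replicate 2, and 0 without HL replicate 2, HL replicate 3, CT replicate 3 or HS replicate 1. Cleo HL+HS replicates 1 and 2 are marked libraries, and the count of 10 lower and 1 higher in Cleo was the same with the term. Of the 22 photorespiration genes in Car, 9 exceeded the sum and 1 lay below it (median departure 0.24), against 12% and 15.8% of all genes. With the term for the column mark 14 of them exceeded it and 2 lay below it, and leaving out 1 library gave 9 to 16 called.

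**Figure D3:**
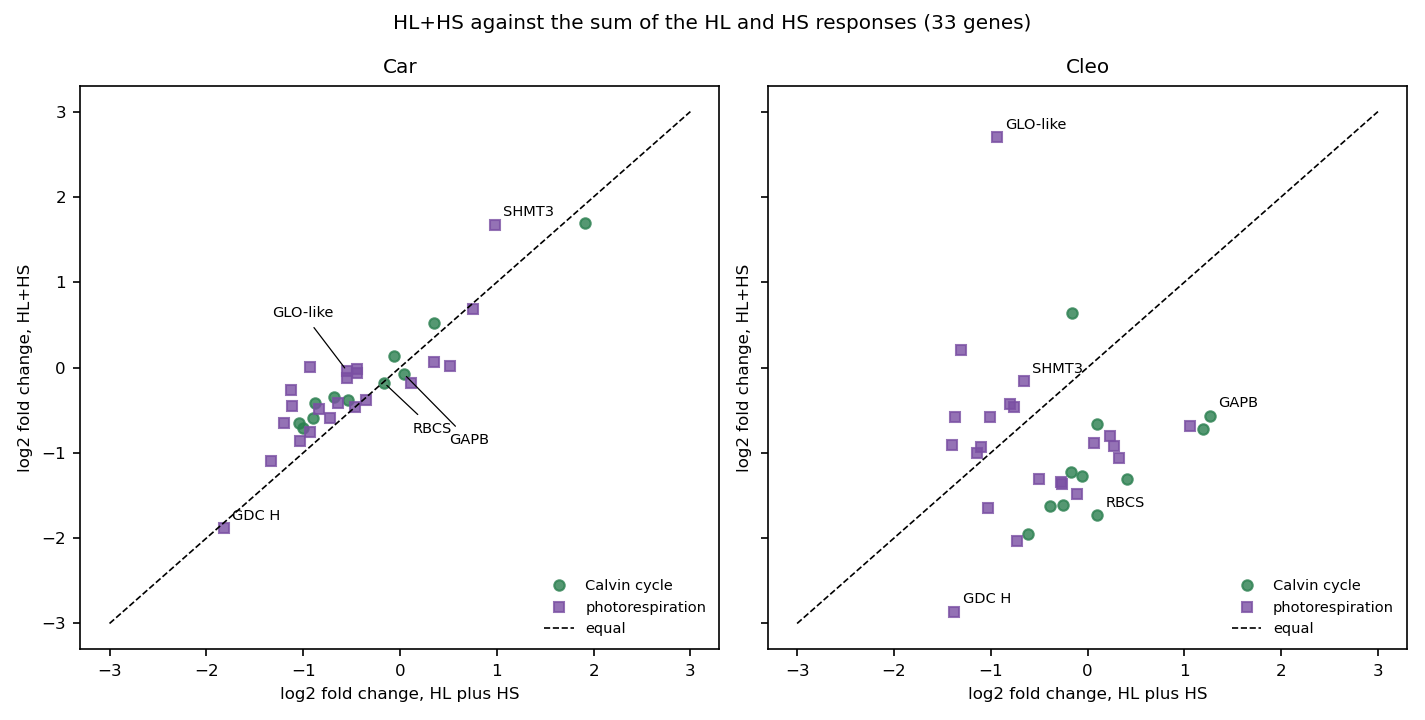
Log2 fold change under HL+HS (vertical axis) against the sum of the log2 fold changes under HL and HS (horizontal axis) for 33 genes, in Car (left) and Cleo (right), with circles for Calvin cycle genes, squares for photorespiration genes and a dashed line where both are equal. In Car the photorespiration genes depart from the line by −0.50 to 0.94, with a median of 0.24. In Cleo most points lie below the line, and the glycolate oxidase-like gene lies at 2.70 on the vertical axis.

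**Figure D4:**
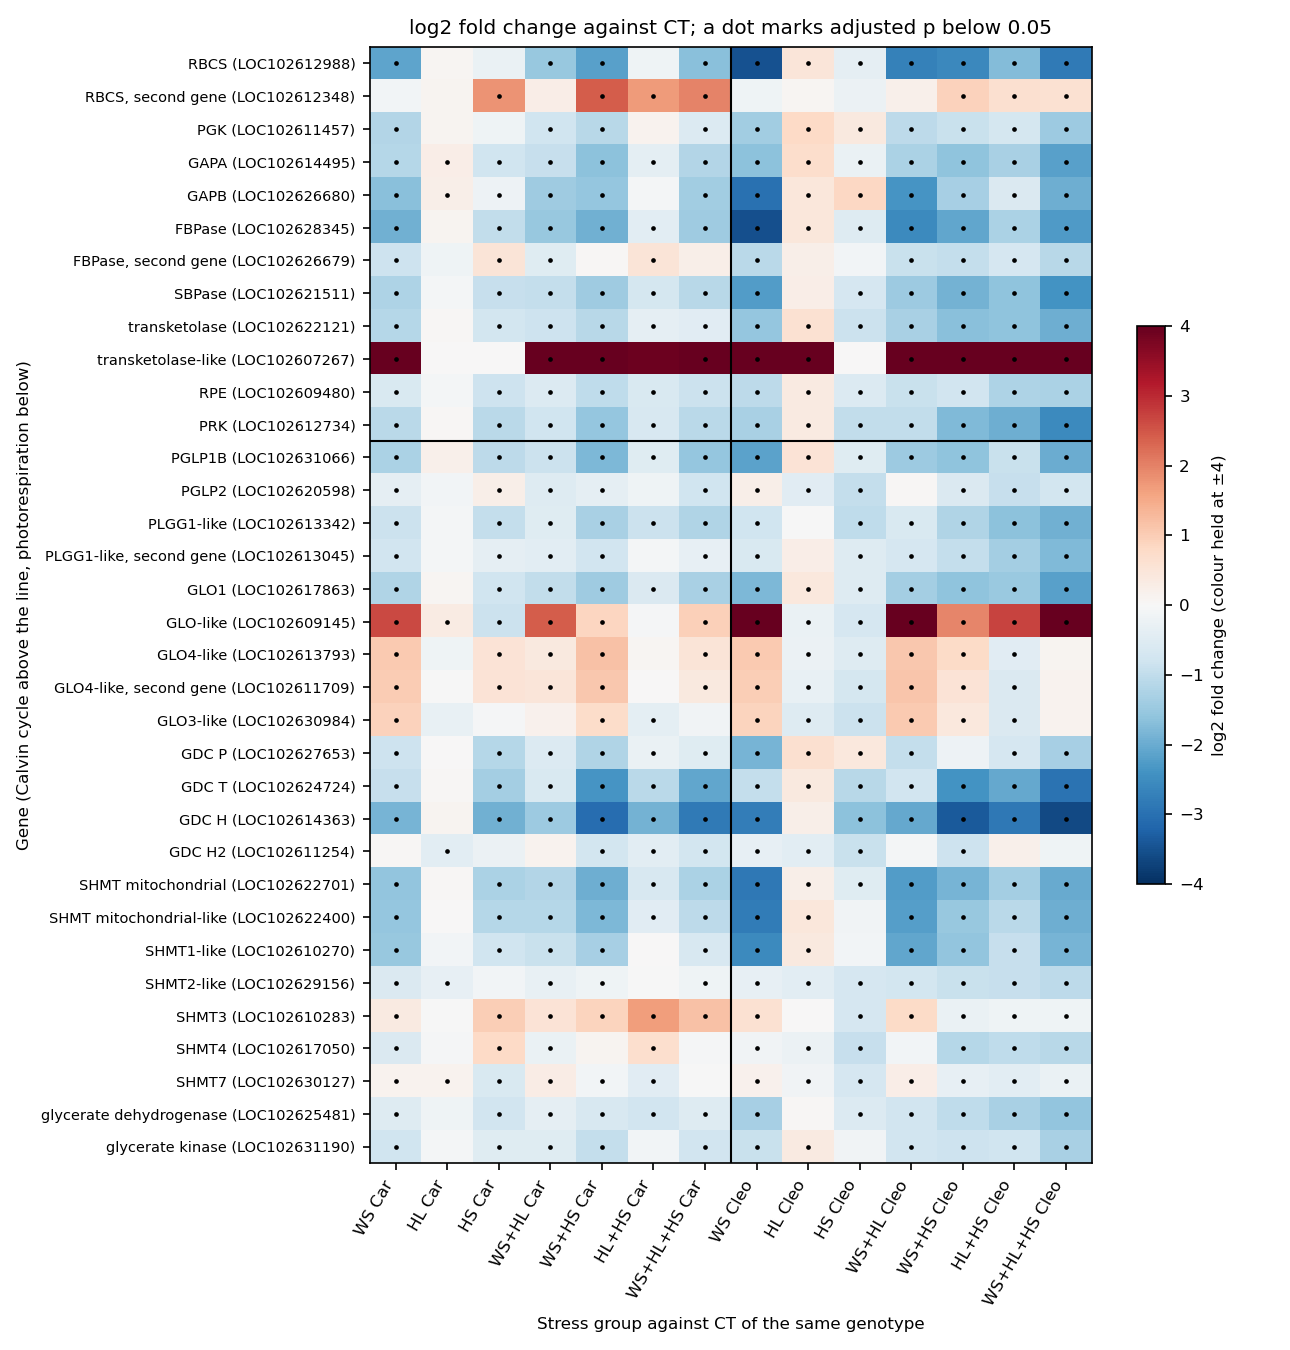
Log2 fold change against the genotype's own CT for 34 tested Calvin cycle and photorespiration genes (rows) under 7 treatments in each genotype (columns), with dots at an adjusted p below 0.05 and the colour held at ±4. Most rows are blue under the treatments with WS, while the glycolate oxidase-like row is red in both genotypes; the transketolase-like gene has 0 counts in CT, so its colour comes from the fit and is no size.

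RBCS encodes the small subunit of rubisco, the carboxylating enzyme. In Car its normalised CPM was 6946, 5509 and 8442 in CT, 1513, 1725 and 1605 under WS, and 5974, 6612 and 5913 under HL+HS. In Cleo it was 11459, 10890 and 13129 in CT, 1062, 1031 and 1078 under WS, and 3252, 3587 and 3868 under HL+HS. Every WS library lay below every CT library of its genotype, and the HL+HS libraries lay below CT in Cleo and among the CT libraries in Car. The WS fold change was −2.11 ± 0.15 (SE) in Car (adjusted p = 3.58e-16) and −3.48 ± 0.15 in Cleo (adjusted p = 1.42e-22), with a difference of −1.37 ± 0.20 (adjusted p = 3.8e-07). Under HL+HS it was −0.18 ± 0.14 in Car (adjusted p = 0.285) and −1.73 ± 0.14 in Cleo (adjusted p = 9.03e-14), and the difference of −1.55 ± 0.20 was called (adjusted p = 1.8e-08). Its share of the members' summed TPM was 20.1% under WS in Car and 14.2% in Cleo.

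A second small subunit gene (LOC102612348) behaved differently at a far lower level. In Car it had 2.21, 2.69 and 3.56 normalised CPM in CT, 10.1, 10.3 and 8.88 under HS, and 14.5, 15.8 and 15.6 under WS+HS. Cleo had 10.8, 10.4 and 11.2 in CT, 8.80, 8.69 and 9.85 under HS, and 19.1, 20.6 and 21.3 under WS+HS. It rose under HS in Car by 1.79 ± 0.16 (adjusted p = 1.62e-12), whereas in Cleo the fold change was −0.25 ± 0.15 (adjusted p = 0.166) and the difference was −2.03 ± 0.22 (adjusted p = 4.83e-10). Under WS+HS it rose by 2.43 ± 0.16 in Car and 0.91 ± 0.15 in Cleo. Reads shared between copies of this family could be split between them, which makes the lowly counted copy uncertain.

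The reduction phase comprises phosphoglycerate kinase and the chloroplast glyceraldehyde-3-phosphate dehydrogenase, made of GAPA and GAPB subunits. Phosphoglycerate kinase (LOC102611457) had 778, 822 and 736 normalised CPM in Cleo CT, 1386, 1310 and 1341 under HL, and 468, 503 and 452 under HL+HS. All HL libraries thus lay above CT and all HL+HS libraries below it, with fold changes of 0.79 ± 0.10 (adjusted p = 7.75e-09) and −0.71 ± 0.10 (adjusted p = 1.55e-08). In Car the gene had 664, 625 and 765 in CT and 725, 776 and 753 under HL+HS, which overlapped, and the fold change was 0.13 ± 0.10 (adjusted p = 0.222). It was called at 0.26 with the term for the column mark (adjusted p = 0.0116) and at 0.27 in unmarked libraries alone (adjusted p = 0.00104).

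GAPB had the lowest p for the difference between genotypes among Calvin cycle genes under WS. Car libraries had 1630, 1588 and 1646 normalised CPM in CT, 531, 506 and 499 under WS, and 1332, 1377 and 1530 under HS. Cleo libraries had 1284, 1311 and 1411 in CT, 165, 169 and 174 under WS, and 2339, 2329 and 2421 under HS. No WS library overlapped CT, and under HS the Cleo libraries lay above CT while the Car libraries lay below it. Water stress lowered GAPB with a log2 fold change of −1.66 ± 0.06 on the log2 scale in Car (adjusted p = 2.11e-24) and −2.98 ± 0.07 in Cleo (adjusted p = 2.73e-32). Heat raised it in Cleo by 0.82 ± 0.06 (adjusted p = 1.97e-14), and in Car the fold change was −0.20 ± 0.06 (adjusted p = 0.00629, or 0.0529 without HS replicate 1), with a difference of 1.02 ± 0.09 (adjusted p = 1.79e-12). GAPA fell under WS with a log2 fold change of −1.13 ± 0.10 in Car and −1.66 ± 0.10 in Cleo, and under HS with −0.80 ± 0.10 in Car. As a result the ratio of GAPB to GAPA, on the TPM scale, was 0.664 ± 0.072 (SD) in Car CT, 0.456 under WS and between 0.989 and 1.02 in the HS libraries, and 0.559 ± 0.041 in Cleo CT, 0.223 under WS and 1.20 under HS. In both genotypes the ratio was thus lower under WS and higher under HS than in any CT library.

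**Figure D5:**
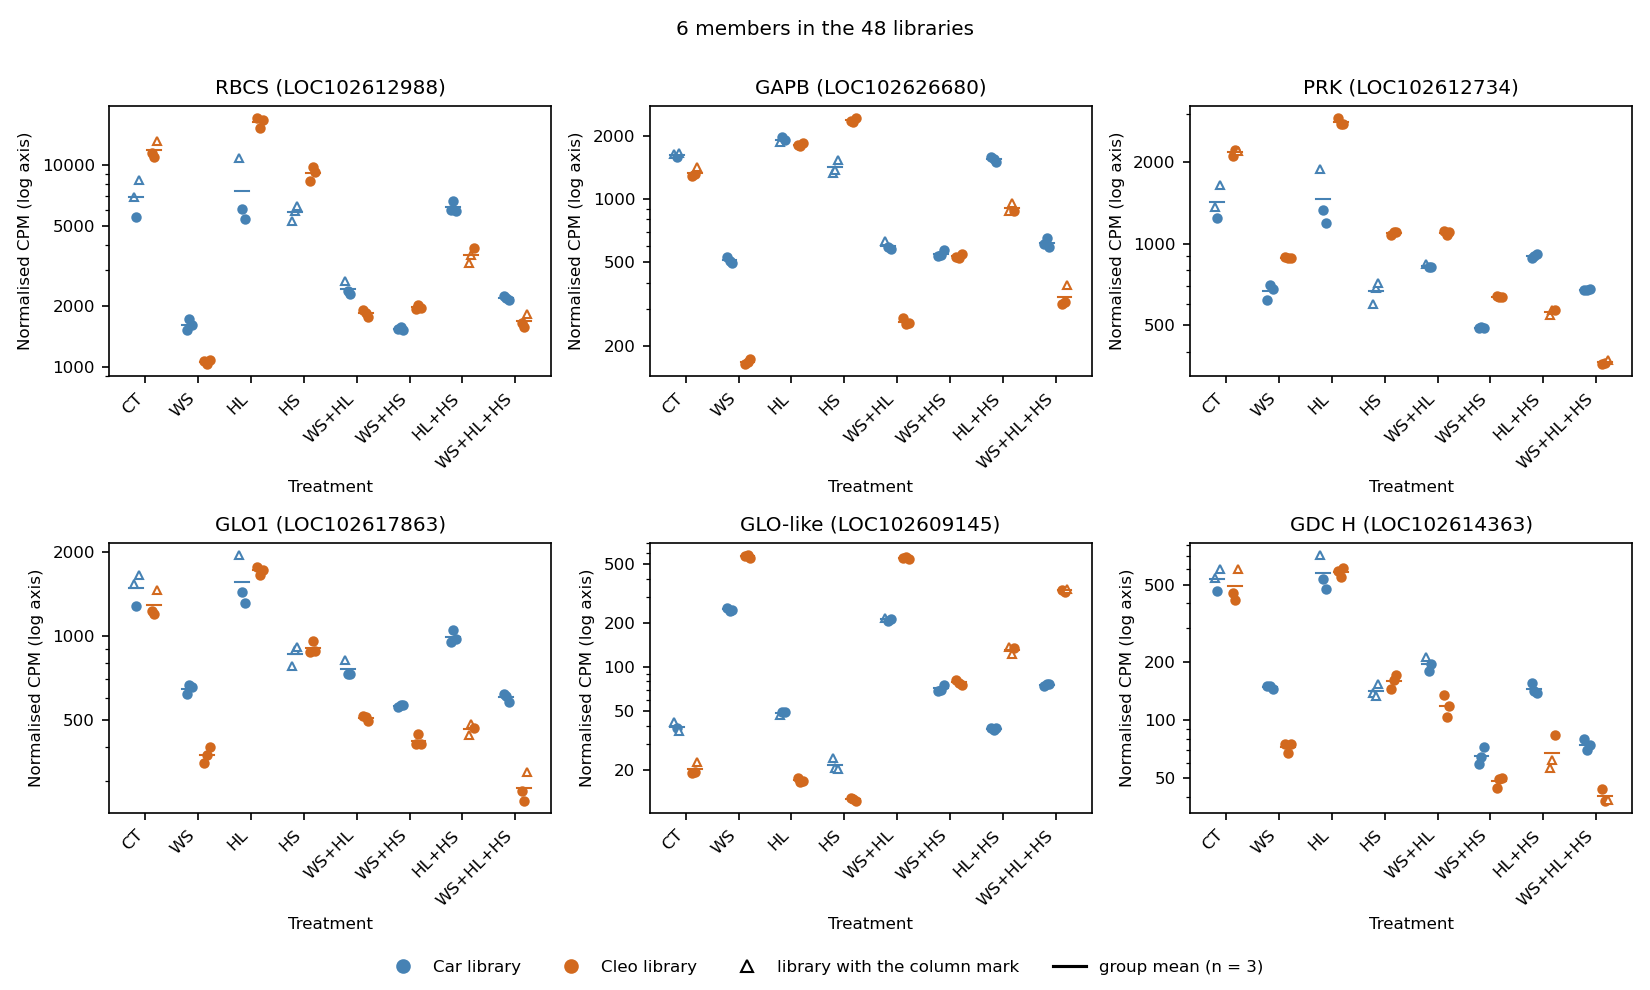
Normalised CPM (log axis) of RBCS, GAPB, PRK, GLO1, the glycolate oxidase-like gene and glycine cleavage H protein in the 48 libraries by treatment, with Car in blue, Cleo in orange, marked libraries as triangles and lines at the group means (n = 3). The Cleo libraries of GAPB lie between 165 and 174 under WS and between 2329 and 2421 under HS, and the glycolate oxidase-like gene rises from 18.9, 19.5 and 22.5 in Cleo CT to 574, 581 and 556 under WS.

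Regeneration of the acceptor includes the 2 bisphosphatases, transketolase, ribulose-phosphate 3-epimerase and PRK. PRK, which phosphorylates ribulose phosphate, had 1366, 1241 and 1646 normalised CPM in Car CT and 887, 899 and 916 under HL+HS. In Cleo it had 2093, 2205 and 2192 in CT and 544, 571 and 568 under HL+HS. Both genotypes fell without overlap, with a log2 fold change of −0.65 ± 0.09 in Car (adjusted p = 5.7e-08) and −1.95 ± 0.09 in Cleo (adjusted p = 3.56e-21), and the difference was −1.29 ± 0.13 (adjusted p = 4.45e-11). Under WS the falls of −1.09 ± 0.09 and −1.29 ± 0.09 differed by −0.20 ± 0.13, which was not called (adjusted p = 0.253). Under WS+HL+HS the fold change was −1.07 ± 0.09 in Car and −2.56 ± 0.10 in Cleo.

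Sedoheptulose-1,7-bisphosphatase fell under WS with a log2 fold change of −1.25 ± 0.13 in Car and −2.24 ± 0.13 in Cleo, and under HL+HS with −0.71 ± 0.13 and −1.62 ± 0.13. Under HL it was not called in Cleo at 0.28 (adjusted p = 0.0874), but was called at 0.41 with the term for the column mark (adjusted p = 0.000193) and at 0.42 in unmarked libraries alone (adjusted p = 8.28e-06). The main chloroplast fructose-1,6-bisphosphatase (LOC102628345) fell under WS+HS with a log2 fold change of −1.92 ± 0.13 in Car and −2.08 ± 0.13 in Cleo, and exceeded the sum of the single responses by 0.99 ± 0.17 in Car and 1.95 ± 0.18 in Cleo. A second chloroplast gene of that enzyme (LOC102626679) rose under HS in Car by 0.51 ± 0.13 (adjusted p = 0.000866), while in Cleo it had −0.12 ± 0.13 (adjusted p = 0.444), and under HL+HS it rose by 0.52 ± 0.13 in Car and fell with a log2 fold change of −0.66 ± 0.13 in Cleo. Ribulose-phosphate 3-epimerase (LOC102609480) fell under WS with a log2 fold change of −0.62 ± 0.09 in Car and −1.04 ± 0.09 in Cleo.

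Transketolase, which moves carbon pairs between sugar phosphates, had 2 chloroplast genes with opposite patterns. The main gene (LOC102622121) fell under WS with a log2 fold change of −1.13 ± 0.10 in Car and −1.54 ± 0.11 in Cleo and under WS+HL+HS with −0.46 ± 0.10 and −1.95 ± 0.11. The transketolase-like gene (LOC102607267) had 0 counts in all CT and HS libraries and in the Car HL libraries. Under WS it reached 3.60, 2.85 and 3.22 normalised CPM in Car and 6.71, 5.88 and 7.06 in Cleo. Every WS library was thus above every CT library, and against a limit of 3 counts over the CT group its level was at least 175-fold higher in Car and at least 338-fold higher in Cleo. It was also at least 237-fold higher under WS+HS in Car and at least 142-fold higher in Cleo, and under HL+HS it was at least 58.5-fold higher in Cleo. This is the Calvin cycle member that was called higher under WS in both genotypes, and its level stayed low.

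Photorespiration starts in the chloroplast, where phosphoglycolate phosphatase releases glycolate. The plastid gene PGLP1B (LOC102631066) fell under WS with a log2 fold change of −1.26 ± 0.09 in Car and −2.14 ± 0.10 in Cleo. The product named phosphoglycolate phosphatase 2 (LOC102620598) fell under HS with a log2 fold change of −0.94 ± 0.09 in Cleo (adjusted p = 1.26e-11), and in Car it had 0.24 ± 0.09 (adjusted p = 0.0194, up to 0.113 without HS replicate 1 or CT replicate 3). The glycolate/glycerate translocator of the plastid envelope had 2 genes, which were named after their values were seen. Of these, LOC102613342 fell under HL+HS with a log2 fold change of −0.86 ± 0.14 in Car and −1.65 ± 0.14 in Cleo, and LOC102613045 had −0.06 ± 0.14 in Car (adjusted p = 0.721) and −1.36 ± 0.14 in Cleo (adjusted p = 3.85e-11).

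Glycolate oxidase turns glycolate into glyoxylate in the peroxisome. Its family, named (S)-2-hydroxy-acid oxidase, had 5 genes, whose balance shifted under WS. Which of the 5 act on glycolate was not tested. GLO1 had 1533, 1287 and 1662 normalised CPM in Car CT and 621, 665 and 655 under WS, and in Cleo 1229, 1199 and 1461 in CT and 350, 373 and 399 under WS. It fell with a log2 fold change of −1.21 ± 0.10 in Car (adjusted p = 9.21e-14) and −1.79 ± 0.10 in Cleo (adjusted p = 5.72e-19), with no overlap. The gene of the product named peroxisomal (S)-2-hydroxy-acid oxidase-like (LOC102609145) went the other way. It had 42.2, 38.6 and 37.1 in Car CT and 254, 242 and 246 under WS, and 18.9, 19.5 and 22.5 in Cleo CT and 574, 581 and 556 under WS.

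The rise of this oxidase-like gene under WS was 2.65 ± 0.06 in Car (adjusted p = 1.24e-31) and 4.81 ± 0.07 in Cleo (adjusted p = 1.09e-38). It was the largest among members with a mean log2 CPM of 3 or more. Under HL+HS it had 38.4, 37.4 and 38.5 in Car and 137, 123 and 135 in Cleo, so the Car libraries lay with CT and the Cleo libraries lay far above it. The fold change there was −0.04 ± 0.06 in Car (adjusted p = 0.553) and 2.70 ± 0.06 in Cleo (adjusted p = 7.75e-32), although HL alone and HS alone gave −0.26 ± 0.06 and −0.68 ± 0.06 in Cleo. The departure from their sum was 3.64 ± 0.09 in Cleo and 0.50 ± 0.08 in Car. Under WS+HS, in contrast, the gene departed from the sum of WS and HS by −0.93 ± 0.08 in Car and −2.17 ± 0.09 in Cleo.

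In shares of the family's TPM, GLO1 made up 94.6 ± 0.84% (SD) in Car CT and 65.9 ± 1.47% under WS, and 74.3 ± 0.13% in Cleo CT and 21.2 ± 1.22% under WS. The oxidase-like gene took 2.47% in Car CT and 24.6% under WS, and 1.12% and 31.0% in Cleo. Under HL+HS the share of GLO1 was 92.3% in Car and 52.2% in Cleo. The other 3 genes, annotated as GLO3-like or GLO4-like, rose under WS by 0.88 to 1.06 in both genotypes, and their summed share went from 2.95% to 9.45% in Car and from 24.6% to 47.8% in Cleo. Near-identical copies could share reads in this family, so the split among the GLO3-like and GLO4-like genes is uncertain.

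The glycine cleavage system converts glycine in mitochondria with P, T and H proteins, among others. Its H protein gene (LOC102614363) had 542, 466 and 601 normalised CPM in Car CT and 59.3, 64.5 and 72.5 under WS+HS, and in Cleo 453, 416 and 602 in CT and 44.1, 38.4 and 38.8 under WS+HL+HS. It fell with a log2 fold change of −3.04 ± 0.14 under WS+HS in Car (adjusted p = 8.63e-22) and with −3.60 ± 0.14 under WS+HL+HS in Cleo (adjusted p = 4.31e-24), with no overlap. The T protein gene (LOC102624724), an aminomethyltransferase, fell under WS with a log2 fold change of −0.94 ± 0.10 in Car and −0.96 ± 0.10 in Cleo, and under WS+HS with −2.36 ± 0.10 and −2.39 ± 0.10. A second H protein gene (LOC102611254) fell under HS in Cleo (−0.88 ± 0.13, adjusted p = 2.11e-07) and under WS+HL+HS in Car (−0.75 ± 0.13, adjusted p = 2.39e-06). Its value under HL in Car was −0.42 ± 0.13 (adjusted p = 0.0169, up to 0.201 without HL replicate 2, HL replicate 3 or CT replicate 3).

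The P protein gene (LOC102627653) parted the genotypes under heat. It had 2413, 2397 and 2845 normalised CPM in Car CT and 1044, 1249 and 1209 under HS, and 2120, 2315 and 1862 in Cleo CT and 2862, 2707 and 2845 under HS. All Car HS libraries lay below CT and all Cleo HS libraries above it. The fold change was −1.13 ± 0.09 in Car (adjusted p = 6.43e-14) and 0.42 ± 0.09 in Cleo (adjusted p = 0.000115), and the difference was 1.55 ± 0.13 (adjusted p = 3.98e-13).

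Serine hydroxymethyltransferase makes serine from glycine, and its 7 genes cover mitochondrial, chloroplast and other forms. The main mitochondrial gene (LOC102622701) fell under WS with a log2 fold change of −1.58 ± 0.08 in Car and −2.87 ± 0.08 in Cleo, and its close copy LOC102622400 with −1.56 ± 0.11 and −2.79 ± 0.12. The pair, which could share reads, made up 83.5% of the family's TPM in Car CT and 66.7% under WS, and 77.8% in Cleo CT and 33.4% under WS.

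The chloroplast gene SHMT3 (LOC102610283) and the gene SHMT4 (LOC102617050) took opposite courses in the genotypes under heat. SHMT3 had 70.2, 67.6 and 78.8 normalised CPM in Car CT and 134, 144 and 151 under HS, and 80.4, 76.2 and 86.6 in Cleo CT and 49.6, 51.7 and 50.6 under HS. For SHMT4 the values were 70.6, 78.4 and 80.2 in Car CT and 133, 141 and 128 under HS, and 146, 129 and 147 in Cleo CT and 72.1, 77.4 and 74.7 under HS. Every Car HS library lay above CT and every Cleo HS library below it for both genes. SHMT3 rose by 0.99 ± 0.07 in Car and fell with a log2 fold change of −0.68 ± 0.07 in Cleo, and SHMT4 rose by 0.81 ± 0.07 and fell with −0.91 ± 0.07. The differences of −1.66 ± 0.10 (adjusted p = 2.87e-17) and −1.73 ± 0.09 (adjusted p = 1.89e-18) had the lowest p among members for HS. SHMT3 rose further under HL+HS in Car, by 1.68 ± 0.07 (adjusted p = 5.34e-23), with 251, 210 and 231 normalised CPM. All 3 Car HS libraries are marked, whereas none of the Car HL+HS libraries is.

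The return of glycerate to the cycle uses glycerate dehydrogenase (LOC102625481) and D-glycerate 3-kinase (LOC102631190). Under WS the dehydrogenase fell with a log2 fold change of −0.51 ± 0.10 in Car and −1.34 ± 0.10 in Cleo, and the kinase with −0.80 ± 0.08 and −0.88 ± 0.08. The genotype difference was called for the dehydrogenase (−0.83 ± 0.14, adjusted p = 8.84e-06) and not for the kinase (−0.08 ± 0.12, adjusted p = 0.654).

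In control leaves 28 of the 60 members were higher in Cleo and 11 were lower, against 33% and 34.4% of all tested genes. Among members with a mean log2 CPM of 3 or more, the widest gaps were in the (S)-2-hydroxy-acid oxidase family. A GLO4-like gene (LOC102613793) had 6.85, 5.98 and 6.41 normalised CPM in Car and 107, 106 and 115 in Cleo, a difference of 4.09 ± 0.09 (adjusted p = 1.58e-31), and the GLO3-like gene (LOC102630984) had 2.18, 1.80 and 1.64 in Car and 58.1, 51.1 and 76.6 in Cleo, a difference of 5.05 ± 0.14 (adjusted p = 5.07e-29). RBCS was higher in Cleo by 0.76 ± 0.14 (adjusted p = 9.3e-06), and PRK by 0.61 ± 0.09 (adjusted p = 2.04e-07). Reads of both genotypes were counted on sweet orange gene models, and the part of sequence differences in these gaps was not tested.

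The relatives were counted in the same way. Of the 26 tested, 13 fell and 7 rose under WS in Car (median −0.19), and 8 fell and 10 rose in Cleo (median 0.13), where 35.3% of all genes fell and 29.5% rose in Car and 33.4% and 31.2% in Cleo. Under HL+HS 11 rose and 8 fell in Car (median 0.18), and 15 rose and 8 fell in Cleo (median 0.42), where 29.5% of all genes rose and 31.4% fell in Car and 35.5% and 31.5% in Cleo. The cytosolic glyceraldehyde-3-phosphate dehydrogenase GAPC1 gene LOC102624117, a glycolytic enzyme, rose under HL+HS by 1.21 ± 0.10 in Car and 0.54 ± 0.10 in Cleo, and cytosolic phosphoglycerate kinase (LOC102611752) rose by 1.06 ± 0.09 and 0.54 ± 0.09. A second GAPC1 gene (LOC102578015) had 0.13 ± 0.11 in Car (adjusted p = 0.322), which was called at 0.30 with the term for the column mark (adjusted p = 0.00747), and rose by 1.09 ± 0.12 in Cleo. The cytosolic fructose-1,6-bisphosphatase of sucrose synthesis (LOC102611558) fell under WS+HS with a log2 fold change of −2.68 ± 0.08 in Car and −2.01 ± 0.08 in Cleo.

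Among the relatives with a mean log2 CPM of 3 or more, D-3-phosphoglycerate dehydrogenase 2 (LOC102626787), of the plastid route to serine, had the lowest p for the genotype difference under WS+HL+HS. It had 204, 183 and 198 normalised CPM in Car CT, 697, 718 and 772 under HS, and 529, 521 and 491 under HL+HS. In Cleo it had 193, 187 and 185 in CT, 690, 690 and 695 under HS, and 120, 127 and 153 under HL+HS. The HS libraries lay far above CT in both genotypes, and the HL+HS libraries lay above CT in Car and below it in Cleo. Heat raised the gene by 1.90 ± 0.06 in Car and 1.88 ± 0.06 in Cleo, a difference of −0.02 ± 0.09 (adjusted p = 0.907). Under HL+HS the fold change was 1.40 ± 0.06 in Car (adjusted p = 5.13e-22) and −0.50 ± 0.06 in Cleo (adjusted p = 3.54e-09).

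Phosphoglycerate mutase is an enzyme of glycolysis, and the genes with mutase or mutase-like product names differed among themselves. The cofactor-independent gene (LOC102622582) rose under WS by 0.97 ± 0.06 in Car and 1.35 ± 0.06 in Cleo and fell under HS with a log2 fold change of −0.52 ± 0.06 and −1.38 ± 0.06. A 2,3-bisphosphoglycerate-dependent mutase gene (LOC102616660) had 6.16, 5.83 and 5.16 normalised CPM in Car CT and at most 33.7 under WS, a rise of 2.55 ± 0.09, and rose by 1.52 ± 0.09 in Cleo. The mutase-like protein AT74H gene (LOC102620270) fell under WS with a log2 fold change of −2.08 ± 0.08 in Car and −2.80 ± 0.09 in Cleo.

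Other genes of both pathways, whose product names lie outside the members, were counted from fixed lists. Of 10 further Calvin cycle genes, 7 fell and 1 rose under WS in Car, 7 fell and 2 rose in Cleo, and under HL in Cleo 8 rose and 1 fell, against 35.3% of all genes lower and 29.5% higher under WS in Car, 33.4% and 31.2% under WS in Cleo, and 17.7% higher and 18% lower under HL in Cleo. Of 16 tested further photorespiration genes, 11 fell and 3 rose under WS in Car, and 13 fell and 2 rose in Cleo, against the same shares of all genes. The genes of these lists named next were chosen after their values were seen. Serine-glyoxylate aminotransferase (LOC102610141) fell under WS with a log2 fold change of −0.64 ± 0.10 in Car and −1.39 ± 0.10 in Cleo. An alanine-glyoxylate aminotransferase 2 homolog (LOC102615236) rose by 3.35 ± 0.10 in Car and 3.39 ± 0.10 in Cleo. A catalase-like gene (LOC102615999), whose product removes peroxide, fell under WS with a log2 fold change of −1.75 ± 0.08 and −2.31 ± 0.08 and rose under HS by 1.20 ± 0.08 and 1.49 ± 0.08. The other catalase gene listed, catalase isozyme 1 (LOC102616866), was lower under HS than in CT without overlap. In Car it had 2271, 1969 and 2683 normalised CPM in CT and 1144, 1244 and 1272 under HS. In Cleo it had 2688, 2928 and 2721 in CT and 1800, 1762 and 1856 under HS.

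Rubisco activase, which frees rubisco from bound sugar phosphates, had 3 genes on the list. The gene with the highest CT values (LOC102627294) had 8359, 6954 and 10089 normalised CPM in Car CT and 7914, 8125 and 8031 in Cleo CT, and fell under WS with a log2 fold change of −1.30 ± 0.12 and −2.05 ± 0.12. Rubisco activase 2 (LOC102630057) had 65.0, 55.2 and 66.8 in Car CT, 1886, 2398 and 2345 under HS, and 14253, 14765 and 14682 under HL+HS. In Cleo it had 37.3, 38.3 and 41.4 in CT, 1927, 1932 and 2020 under HS, and 8545, 9056 and 8484 under HL+HS. The third gene (LOC102619184) had 57.9, 63.0 and 56.2 in Car CT and fell under WS (−0.50 ± 0.06 in Car and −0.74 ± 0.07 in Cleo), and under HS it fell in Car (−0.78 ± 0.06) and rose in Cleo (0.33 ± 0.07). No treated library of rubisco activase 2 or LOC102619184 overlapped CT in these comparisons, and under HL+HS the normalised CPM of rubisco activase 2 stood above that of LOC102627294 in every library, whose values there were 6598, 7134 and 6679 in Car and 3286, 3472 and 3266 in Cleo.

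The rise of rubisco activase 2 under HL+HS was 7.87 ± 0.10 in Car (adjusted p = 8.06e-41) and 7.80 ± 0.10 in Cleo (adjusted p = 3.54e-41). High light alone gave 4.65 ± 0.08 in Car and 5.84 ± 0.09 in Cleo, and HS alone 5.15 ± 0.09 and 5.65 ± 0.09. Under WS+HL the rise was 2.68 ± 0.08 in Car and 1.43 ± 0.07 in Cleo, and under WS the fold change was −0.33 ± 0.07 in Car (adjusted p = 0.000146) and 0.12 ± 0.07 in Cleo (adjusted p = 0.168).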

How the data were processed

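Leaf mRNA was sequenced from stranded libraries, per the labels' protocols. The authors deposited whole-number read counts, FPKM and TPM per gene, per the file headers. StringTie 2.1.3b, HISAT2 2.1.0 and FastQC 0.11.7 appear in the list of programs, per the submitters' processing notes; multi-read handling is not given in the sources used here. Members were chosen by product name, and 59 of 65 matched RefSeq's DVS_A1.0 gene table. Members and lists were chosen with earlier results of these data known.

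The deposited counts of 48 libraries were fitted in 16 group means (R 4.3.3, edgeR 4.0.16, limma 3.58.1, TMM, filterByExpr, 23721 genes tested, 32 residual degrees of freedom, biological coefficient of variation 11.2%). Quasi-likelihood tests were adjusted by Benjamini-Hochberg over all tested genes in 28 comparisons, called below 0.05. Differences between genotypes and departures from additivity were contrasts of that fit. Levels and shares used the deposited TPM, checked against rescaled FPKM. The script was tested on simulated data. Alternatives were DESeq2 1.42.0, its size factors, no filter, fewer libraries, leaving out each library, a replicate block and a term for the column mark (chosen after seeing the data where unmarked libraries alone were used).

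Named genes were the 2 highest by mean TPM in each role and compartment, the largest called rise and fall per stress comparison, and the 2 lowest p values elsewhere, each with a mean log2 CPM of 3 or more for the last 2 kinds.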

Additional observations from a re-analysis of the deposited data

Results flagged for a closer look

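The response to a stress differed between the genotypes, by the test of the difference itself, for the members named in the report (edgeR's quasi-likelihood test, Benjamini-Hochberg adjusted; values are the log2 fold change in Cleo minus that in Car, ± SE).

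The glycolate oxidase-like gene LOC102609145 differed by 2.16 ± 0.08 under WS (adjusted p = 5.61e-23), −0.57 ± 0.09 under HL (3.86e-06), 2.34 ± 0.09 under WS+HL (3.95e-24), 1.09 ± 0.08 under WS+HS (9.38e-14), 2.74 ± 0.09 under HL+HS (3.27e-26) and 3.08 ± 0.09 under WS+HL+HS (8.4e-28). It was higher in Cleo in all of these except HL.

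GAPB (LOC102626680) differed by −1.32 ± 0.09 under WS (1.49e-15), and the glycine cleavage P protein gene LOC102627653 by 0.63 ± 0.13 under HL (0.000274). SHMT4 (LOC102617050) differed by −1.73 ± 0.09 under HS (1.89e-18) and −1.24 ± 0.09 under WS+HS (3.44e-14), and SHMT3 (LOC102610283) by −1.66 ± 0.10 under HS (2.87e-17).

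Among the relatives, the 2,3-bisphosphoglycerate-dependent mutase gene LOC102616660 differed by −1.57 ± 0.12 under WS+HL (1.43e-13). D-3-phosphoglycerate dehydrogenase 2 (LOC102626787) differed by −1.89 ± 0.09 under HL+HS (9.74e-21) and −2.80 ± 0.09 under WS+HL+HS (4.79e-26).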

How the results depend on the processing

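No named fold change that was called in the main fit reversed under any alternative run. Changes of sign among those not called were not counted. The counts of calls that moved by over 1.5 times concerned HL, the pairs and the differences between genotypes. With the term for the column mark, the departure for HL+HS in Car called 35 members instead of 23, 6 Calvin cycle genes instead of 2 and 16 photorespiration genes instead of 10; the WS+HL departure called 0 Calvin cycle genes in Car instead of 1 and 7 in Cleo instead of 4; and the HL genotype difference called 7 Calvin cycle genes instead of 4 and 8 photorespiration genes instead of 5. With unmarked libraries alone, the WS+HL departure in Cleo called 30 members instead of 18, 9 Calvin cycle genes and 12 photorespiration genes instead of 7, and that in Car 3 Calvin cycle genes; the HL genotype difference called 25 members instead of 15 and 9 genes of each pathway; the WS+HS genotype difference called 9 Calvin cycle genes instead of 5 and 14 photorespiration genes instead of 9; and HL in Car called 4 members instead of 7 and 1 photorespiration gene instead of 4. Fitting only the libraries of a comparison, HL in Car called 0 members, 0 Calvin cycle genes, 0 photorespiration genes and 2 of the other-pathway genes instead of 10. DESeq2 size factors and no filter each took the WS+HL departure in Car to 0 Calvin cycle genes, and no filter took HL in Car to 1. DESeq2's own test moved no count.

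Replicate numbers paired the libraries weakly at most: the correlation of deviations was −0.16 to 0.148 over 42 same-numbered pairs, with 3 over 0.1. The median was 0.0129, against −0.0102 for differently numbered pairs. Of the 48 libraries, 23 correlated best with their own number. With a replicate block HL in Car called 1 Calvin cycle gene instead of 2, GAPA's adjusted p there went from 0.0489 to 0.058, and SHMT4's under WS in Cleo from 0.0495 to 0.0527.

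Leaving out 1 library gave, for HL in Car, 4 to 20 members, 1 to 5 Calvin cycle genes, 2 to 7 photorespiration genes and 4 to 15 other-pathway genes. For the HL genotype difference it gave 10 to 34 members, 2 to 9 Calvin cycle and 4 to 13 photorespiration genes, and for the WS+HL and WS+HS differences 4 to 9 and 3 to 7 Calvin cycle genes. The HL+HS departure in Car ranged over 20 to 39 members, 0 to 9 Calvin cycle and 9 to 16 photorespiration genes; the WS+HL departure over 10 to 40, 0 to 8 and 4 to 19 in Car, and 2 to 5 Calvin cycle genes in Cleo. The highest counts came mostly without Car HL replicate 1 and the lowest without Car CT replicate 1 or 3. RBCS, with an SE of 0.14, was not called at −0.26 under HS in Car (adjusted p = 0.112) but was at −0.35 with the term for the column mark (adjusted p = 0.00918), and under HS in Cleo it was called at −0.37 (adjusted p = 0.0242) but not at −0.26 with the term (adjusted p = 0.0511).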

Other observations

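Genes listed as markers of dividing cells (18 genes) had a summed level of 245 ± 16.8 TPM (SD, n = 3) in Car CT and 274 ± 17.0 TPM in Cleo CT, and 1094 ± 24.9 TPM and 1179 ± 23.0 TPM under HL+HS. A calcyclin-binding protein gene, which the list matched by name and which is no such marker, held 870 to 909 TPM of the Car sums and 904 to 919 TPM of the Cleo sums under HL+HS. Without it the other 17 genes, of cyclin-A and cyclin-B, mitotic checkpoint and cell division cycle 20 proteins, summed to 202 ± 15.2 TPM in Car CT and 198 ± 4.11 TPM under HL+HS, which overlapped, and to 193 ± 16.2 TPM in Cleo CT and 270 ± 26.7 TPM under HL+HS, which did not.

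Vascular markers (13 genes, 0 of them at 0 counts in all libraries) summed to 233 ± 28.6 TPM in Car CT and 108 ± 11.4 TPM under WS, and to 237 ± 55.5 TPM in Cleo CT and 72.3 ± 1.26 TPM under WS. Epidermal markers (21 genes, most of them 3-ketoacyl-CoA synthases, 2 at 0 counts in all libraries) summed to 450 to 745 TPM in the Car CT libraries and 372 to 378 TPM under WS, and to 297 to 672 TPM in Cleo CT and 397 to 440 TPM under WS. Genes listed as guard cell markers (12 genes, most of them named after epidermal patterning factors, 0 at 0 counts in all libraries) were taken by product name. They summed to 29.6 to 65.9 TPM in Car CT and 22.8 to 24.0 TPM under WS. In Cleo they summed to 5.17 to 22.6 TPM in CT and 18.4 to 21.4 TPM under WS. Whether each of these genes marks guard cells was not tested, so their sum is not read as guard cell signal. The part of these markers in the results on the Calvin cycle genes was not tested.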
